A study of Mus musculus with 10 samples.

Results

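Bivalent chromatin is promoter chromatin that carries both H3K4me3, a methyl mark laid down around transcription start sites (TSS), and H3K27me3, the mark of the Polycomb repressive complex PRC2. The second Polycomb complex, PRC1, places ubiquitin on H2A (H2AK119ub), and acetylation of the same lysine as in H3K27me3 (H3K27ac) marks active promoters and enhancers. In early embryonic cells bivalent promoters are known for holding developmental regulators, such as homeobox and GATA genes, at low expression until a lineage is chosen.

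The regions described here were the 1540 H3K4me3 peaks of WT cells that were overlapped by at least 1 bp by a WT H3K27me3 peak and by no H3K27me3 peak of Delta cells. They were chosen by the H3K27me3 calls of both genotypes, so their lack of Delta H3K27me3 is the rule and not a finding. They made up 19.0% (95% Wilson interval 18.1% to 19.8%) of the 8116 bivalent peaks among 16038 WT H3K4me3 peaks. The word bivalent is used below only for an overlap of at least 1 bp between H3K4me3 and H3K27me3 calls. Neither gene expression nor H3K27ac entered it. The other 6576 bivalent peaks met a Delta H3K27me3 peak and are called kept peaks below, while the 1540 are called members.

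The cells were mCherry-positive mesoderm sorted at day 4 of embryoid body culture, in which mouse embryonic stem (ES) cells form mesoderm. WT cells came from a J1-derived ES line with an mCherry reporter at 1 allele of Scl (Tal1), the transcription factor that starts the blood programme. Delta cells came from an ES line derived from it, in which both alleles lack the DNA-binding bHLH part of SCL, labelled Scl d/d against Scl wt. The strain label is C57Bl/6 X Sv129 for some samples and differs in its ending for others, up to C57Bl/6 X Sv136. The mCherry reporter drives the sort in both genotypes, each line goes back to single clones, and mouse cells were mixed 2 to 1 with Drosophila S2 cells before chromatin immunoprecipitation and sequencing (ChIP-Rx). Each mark was measured in 1 library per genotype, and all lists of a genotype were called against the same input.

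The 8 peak lists held between 2388 (Delta H2AK119ub) and 16038 (WT H3K4me3) regions. The H3K27me3 lists were close in size, with 11345 WT and 10881 Delta peaks covering 30.4 and 31.0 Mb. No scaling by the Drosophila reads is described for the peak calls, so list sizes do not measure the amount of a mark. With scaled densities at TSS, and by western blot, the study reported less H3K27me3 and less H2AK119ub in Delta cells. Of 8 marker genes of mesoderm and blood precursors, 8 had WT H3K4me3 at their TSS, and WT H3K27ac was called at 3 of them (Tal1, Lmo2 and Fli1) against 0 in Delta. With no replicate libraries there is no test of any difference, no read depth is given in the lists, and every interval below covers the counting of regions only. The study reported mapped reads per library, with more in Delta than in WT for H3K4me3 and fewer in Delta for H3K27me3. In sorted cells profiled as a pool, fewer cells with a mark and less of the mark per cell cannot be told apart.

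The sequences of 6 members show the kinds of change that the following paragraphs describe, and bases near their centres, outside annotated untranslated exons, are printed with CpG dinucleotides, the bases that Polycomb-bound promoters are rich in, in capitals. All are from the plus strand of mm9. Nnat, a neuronal gene expressed from the paternal copy, was read at chr2:157386365-157386664, where all 300 bases were inside WT H3K27me3 and WT H3K4me3 and 0 were inside any Delta peak.
Nnat: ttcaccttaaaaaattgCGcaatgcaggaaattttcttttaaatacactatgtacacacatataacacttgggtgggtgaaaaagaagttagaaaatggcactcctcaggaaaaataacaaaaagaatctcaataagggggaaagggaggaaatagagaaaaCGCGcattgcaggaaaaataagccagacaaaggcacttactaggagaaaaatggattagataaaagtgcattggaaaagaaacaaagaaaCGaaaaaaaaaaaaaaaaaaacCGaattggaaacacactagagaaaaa
Gata4, a cardiac and endodermal transcription factor, had an intronic member, shown at chr14:63866751-63867050 inside a long Polycomb domain that stayed called on both sides of it in Delta.
Gata4: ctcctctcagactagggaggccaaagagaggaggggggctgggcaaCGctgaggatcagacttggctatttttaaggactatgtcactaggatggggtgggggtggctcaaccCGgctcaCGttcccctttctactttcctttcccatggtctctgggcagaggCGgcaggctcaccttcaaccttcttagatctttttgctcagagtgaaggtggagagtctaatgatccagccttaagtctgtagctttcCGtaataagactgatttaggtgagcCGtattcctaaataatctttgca
Hand1, a regulator of heart and extraembryonic mesoderm, had a member over its TSS, shown upstream of it at chr11:57646321-57646556, where all 236 bases were inside Delta H3K27ac and 0 inside WT H3K27ac.
Hand1: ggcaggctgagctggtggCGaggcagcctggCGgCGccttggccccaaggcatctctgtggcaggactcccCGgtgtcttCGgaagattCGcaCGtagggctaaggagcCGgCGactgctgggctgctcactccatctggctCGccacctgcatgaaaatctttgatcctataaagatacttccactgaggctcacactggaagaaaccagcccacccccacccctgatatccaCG
Etv5, an ETS factor induced by FGF signalling, is shown just downstream of its TSS at chr16:22439140-22439439, with all 300 bases inside WT H3K27me3 and Delta H3K27ac and 0 inside WT H3K27ac.
Etv5: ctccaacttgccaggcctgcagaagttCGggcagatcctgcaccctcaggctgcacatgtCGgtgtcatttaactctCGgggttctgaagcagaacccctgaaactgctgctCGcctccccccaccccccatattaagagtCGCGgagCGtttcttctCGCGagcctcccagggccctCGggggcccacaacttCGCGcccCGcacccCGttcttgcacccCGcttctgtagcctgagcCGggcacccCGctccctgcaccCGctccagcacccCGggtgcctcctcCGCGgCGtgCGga
Inf2, a formin that assembles and severs actin, carried WT H2AK119ub over all 300 bases at chr12:113827857-113828156, in an intron, while its WT H3K27me3 lay outside them.
Inf2: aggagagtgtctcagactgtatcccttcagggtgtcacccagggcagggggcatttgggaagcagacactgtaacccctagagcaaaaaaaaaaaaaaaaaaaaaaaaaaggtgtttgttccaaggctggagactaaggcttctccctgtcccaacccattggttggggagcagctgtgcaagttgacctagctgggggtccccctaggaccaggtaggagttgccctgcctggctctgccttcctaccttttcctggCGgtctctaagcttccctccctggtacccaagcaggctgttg
Rplp1, a protein of the ribosomal stalk, carried WT H3K27ac over all 300 bases and WT H3K27me3 over 271 of them at chr9:61761888-61762187.
Rplp1: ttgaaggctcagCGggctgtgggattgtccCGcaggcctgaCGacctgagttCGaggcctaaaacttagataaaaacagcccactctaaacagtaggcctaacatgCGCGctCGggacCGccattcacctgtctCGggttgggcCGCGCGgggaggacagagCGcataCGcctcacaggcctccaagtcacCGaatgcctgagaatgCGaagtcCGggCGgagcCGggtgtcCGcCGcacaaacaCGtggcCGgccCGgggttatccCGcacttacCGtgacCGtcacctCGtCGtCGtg
These windows ranged from 1 CpG at Inf2 to 30 at Rplp1, and GC content from 33.3% at Nnat to 66.3% at Etv5.

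Members lay at short and weakly enriched WT H3K27me3. The WT H3K27me3 peaks touching a member added up to a median of 501 bp (quartiles 318 and 880 bp, range 219 to 31965 bp), against 3276 bp for kept peaks, and the shortest peak in the WT list was 219 bp long. The highest −log10 q of these H3K27me3 peaks, the strength of the call against background, had a median of 2.59 at members and 6.87 at kept peaks, and the lowest value in the WT list was 1.31. A value of 3 or more was reached at 544 members (35.3%) and at 82.4% of kept peaks. The median fold enrichment of H3K27me3 was 3.36 at members and 4.93 at kept peaks. These values are close to the measure that chose the members and are given as a description.

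The share of WT bivalent peaks without Delta H3K27me3 was lower in each longer class of WT H3K27me3. It was 57.3% (54.7% to 60.0%) where the touching WT peaks added up to 500 bp or less, with 770 of 1343 peaks. It was 37.8% between 500 and 1000 bp, 18.2% between 1000 and 2000 bp and 3.66% between 2000 and 5000 bp. Only 9 of 979 peaks (0.919%) in domains over 10000 bp were members.

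**Figure D1:**
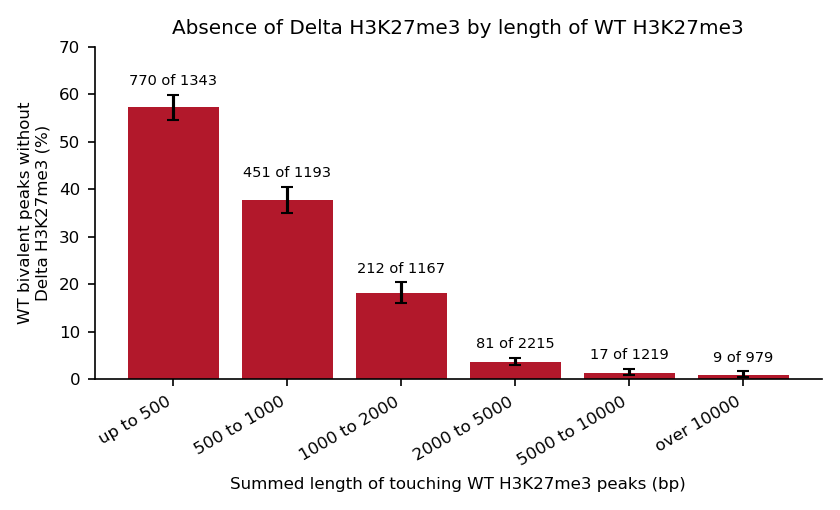
Bars show the percentage of WT bivalent H3K4me3 peaks without a Delta H3K27me3 peak (y axis) in 6 classes of the summed length in bp of the touching WT H3K27me3 peaks (x axis), with 95% Wilson intervals and counts above the bars. The share goes from 57.3% in the shortest class to 0.919% in the longest.

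The members were touched by 1541 distinct WT H3K27me3 peaks, of which 1396 met no Delta H3K27me3 peak anywhere along their length. At 148 members (9.61%) the WT H3K27me3 peak did reach a Delta peak outside the H3K4me3 peak. The nearest Delta H3K27me3 peak was a median of 43527 bp away, and 214 members (13.9%) had one within 2500 bp. At the limit of the rule, the members at Gcnt2 and Pdpn lay 1 bp from a Delta H3K27me3 peak and 1 at 1700020L24Rik lay 7 bp away, while kept peaks at Cyp2s1, Fcho1 and Rgma shared 2, 7 and 20 bp with one. On the WT side the members with the least overlap shared 2 bp at Timp3, 10 bp at Lmtk3 and 11 bp at Htr5a with WT H3K27me3. In the reverse direction, 1022 of 7433 Delta bivalent peaks (13.7%) had no WT H3K27me3, and their Delta H3K27me3 was as short, with a median of 467 bp.

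The 10 members with the longest WT H3K27me3 all touched domains that were largely called in Delta as well. The longest, 31965 bp at Gata4 (chr14:63859763-63891727), held 2 members and 4 kept peaks, and 82.5% of its bases were inside 2 Delta peaks. One Gata4 member lay across the end of the domain at chr14:63859507-63860595 and the other, printed above, lay between the Delta peaks, 195 bp from the nearer. The domain of Isl1, a LIM homeobox factor of heart and motor neuron precursors, was 23731 bp long and 95.3% covered in Delta, with its member 19 bp from Delta H3K27me3. The domain that reached the member at Aatf, a nuclear cofactor gene, was 19601 bp long and held the TSS of Lhx1, another LIM homeobox gene. Tbx20, a cardiac T-box factor, had the least Delta cover of the 9 domains at 70.5% of 13374 bp. The others were at Bcan, Gm13334, Hand1, Cd248 and Gadd45b, with 77.7% to 91.5% covered. The members at Aatf and Bcan lay mostly outside their domains, which covered 76 of 1571 bp and 80 of 704 bp of the H3K4me3 peaks.

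By −log10 q the first member was Scrt1, a transcriptional repressor of neural cells, with 32.7 and an H3K27me3 fold enrichment of 11.9 over 7563 bp. The overlap was limited to 382 of the 1632 bp of its H3K4me3 peak, and Delta H3K27me3 lay 561 bp away. Scrt1 carried 790 bp of H3K27ac in WT and none in Delta. The others of the 10 strongest calls were members touching the long domains at Bcan, Gadd45b, Aatf, Gm13334, Isl1 and Gata4, together with Dgcr14 and Phox2a. Phox2a, a homeobox gene of noradrenergic neurons, had 131 bp of H3K27ac in Delta alone.

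At Hand1 the Delta H3K27me3 stopped on both sides of the member, and Delta H3K27ac was called over the member and beyond the gap. The Delta H3K27ac peak ran from -416 to 874 bp around the centre of the member. It overlapped a Delta H3K27me3 peak that began at 335 bp. The member at chr11:57646259-57646553 was 295 bp long, with an H3K4me3 fold enrichment of 3.10 in WT. In Delta it was part of a longer H3K4me3 peak with a fold enrichment of 7.59, and H3K27ac was called over all 295 bp with a fold enrichment of 4.17. WT H3K27ac was not called there. The same gene kept H3K27me3 at 3 other H3K4me3 peaks of its domain.

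**Figure D2:**
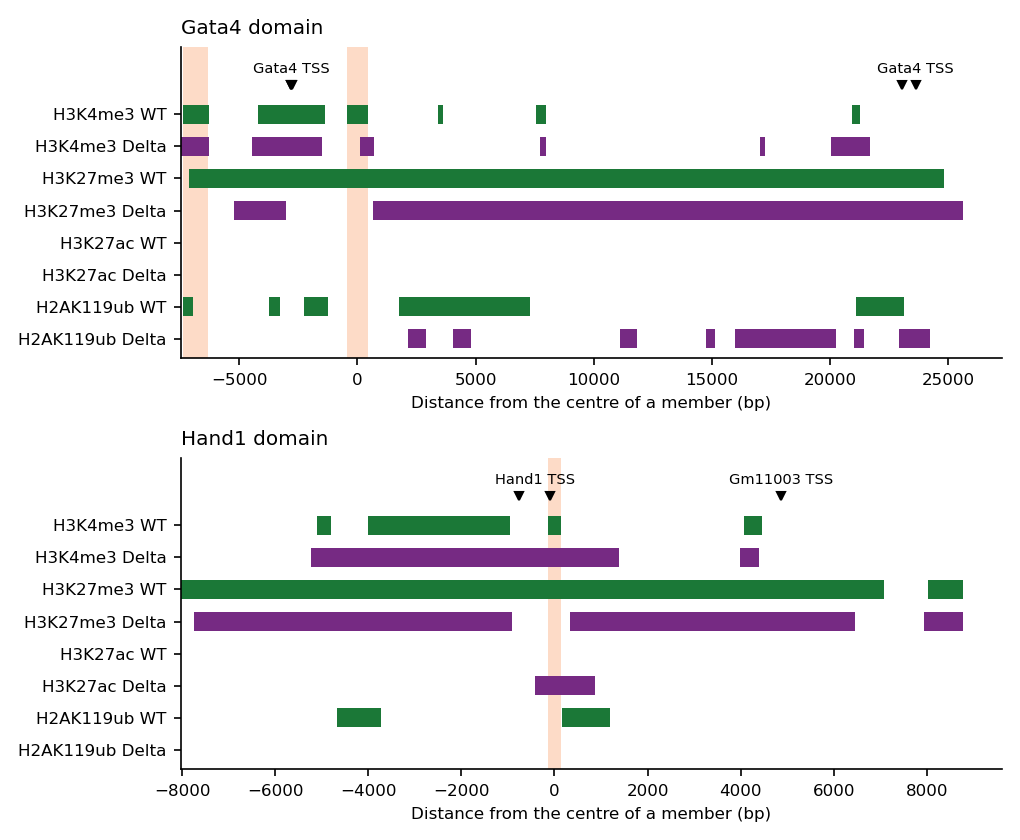
Called peaks in WT (green) and Delta (purple) across the Gata4 and Hand1 domains, 1 row per list, against distance in bp from the centre of a member (x axis), with members shaded and TSS as triangles. Delta H3K27me3 is interrupted at the inner Gata4 member and at the Hand1 member, and Delta H3K27ac covers all 295 bp of the Hand1 member.

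Where the whole WT H3K27me3 peak had no Delta counterpart, at 1392 members, the median length was 460 bp and 28 reached 2000 bp. The ranking of these was made after the values were seen. The longest, 9086 bp, covered a member in an intron on chromosome 18, 29884 bp from the nearest coding TSS, of 9630014M24Rik. The next was Evx1, a homeobox gene of the posterior primitive streak, where 5133 bp of WT H3K27me3 covered 96.5% of the H3K4me3 peak. At Evx1 H3K4me3 kept its length in Delta, with all 3252 bp called and a fold enrichment of 6.20 in WT and 5.46 in Delta, and 214 bp of H2AK119ub were called in WT. Tgif1, a repressor of TGF-beta responses, had 3342 bp of WT H3K27me3 inside a 7018 bp H3K4me3 peak, together with H3K27ac in both genotypes. The intron of Fgf18, an FGF ligand of skeletal development, had 3124 bp and no Delta H3K4me3. The strongest call among these members was at Nnat, with a −log10 q of 12.5 and a fold enrichment of 6.83. It was followed by Tpp2, a peptidase, with 8.56, and Eef1e1, a cofactor of tRNA synthetases, with 7.93. Of the members whose whole WT peak had no Delta counterpart, 55.4% had WT H3K27ac. Of the 148 whose WT peak reached a Delta peak elsewhere, 8.78% did. The median WT H3K27me3 length of these 148 was 2137 bp, and the shares were not matched on length.

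Nnat was also first by length among the 40 members without Delta H3K4me3. Its H3K4me3 peak of 1978 bp at chr2:157385526-157387503 had a WT fold enrichment of 5.92 and a −log10 q of 8.92, and the nearest Delta H3K27me3 peak was 102427 bp away. No H3K27ac or H2AK119ub was called there in either genotype. The next by length were Prdm6, a SET domain regulator of smooth muscle, with 1266 bp, and a region 82628 bp from Sfi1, with 930 bp, where GC content was 36.8%. Bcan and Tbx21 followed with 704 and 697 bp, and their WT H3K4me3 was weak, at fold enrichments of 3.25 and 3.36.

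Apart from H3K27me3, most members kept the H3K4me3 by which they were found. Delta H3K4me3 overlapped 1500 of the 1540 members (97.4%), against 92.1% of all WT H3K4me3 peaks and 93.5% of kept peaks. The WT H3K4me3 peaks of members were long and strong, with a median of 1782 bp and a fold enrichment of 8.78, against 1220 bp and 5.61 for kept peaks. Kept peaks weighted to the members' lengths of WT H3K27me3, in 10 strata cut at the members' deciles, had a median of 1907 bp and 8.96. Delta H3K4me3 overlapped 97.7% of these weighted kept peaks. The difference, members minus weighted kept peaks, was -0.27 points (-1.25 to 0.72). In Delta the fold enrichment of H3K4me3 was lower. The median log2 ratio of Delta to WT was -0.29 (quartiles -0.46 and -0.09) over the 1500 members, -0.10 over kept peaks, -0.17 over weighted kept peaks and -0.12 over all WT H3K4me3 peaks with a Delta peak. The difference in mean between members and weighted kept peaks was -0.11 (95% interval -0.13 to -0.09). It stayed below 0 under each of the 13 other settings, between -0.07 and -0.20. Whether depth had a part in it was not tested.

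Members sat at promoters. A coding TSS lay within 2500 bp of 1396 members (90.6%), against 81.1% of all WT H3K4me3 peaks, 79.8% of kept peaks and 92.0% of weighted kept peaks. The difference from weighted kept peaks was -1.37 points (-3.14 to 0.40), and it turned to 16.3 points (14.3 to 18.4) when matched on the bp of the peak covered and to 2.36 (0.45 to 4.27) when matched on −log10 q. The midpoint of a member was in an intron in 51.0%, in an untranslated exon in 20.4%, in another exon in 16.4% and outside genes in 12.2%. In the same order, the shares were 42.8%, 21.1%, 17.97% and 18.1% for all WT H3K4me3 peaks. For kept peaks they were 34.9%, 23.2%, 23.3% and 18.6%. These shares were not matched on WT H3K27me3 length. At 1186 members (77.0%) the WT H3K27me3 peak lay wholly inside the H3K4me3 peak, which was true of 21.7% of kept peaks and of 74.6% of weighted kept peaks. Among 1309 members that held a TSS, 80.6% of the overlaps with WT H3K27me3 were centred downstream of it. Over all 1314 overlaps the median position of the centre was 271.5 bp downstream. Only the part of WT H3K27me3 inside the H3K4me3 peak was counted, and these H3K4me3 peaks themselves reached further downstream. WT H3K4me3 covered 93.3% of these members at 500 bp downstream and 60.7% at 500 bp upstream. At 300 bp downstream of the TSS, WT H3K27me3 covered 70.3% of members and 68.6% of weighted kept peaks.

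**Figure D3:**
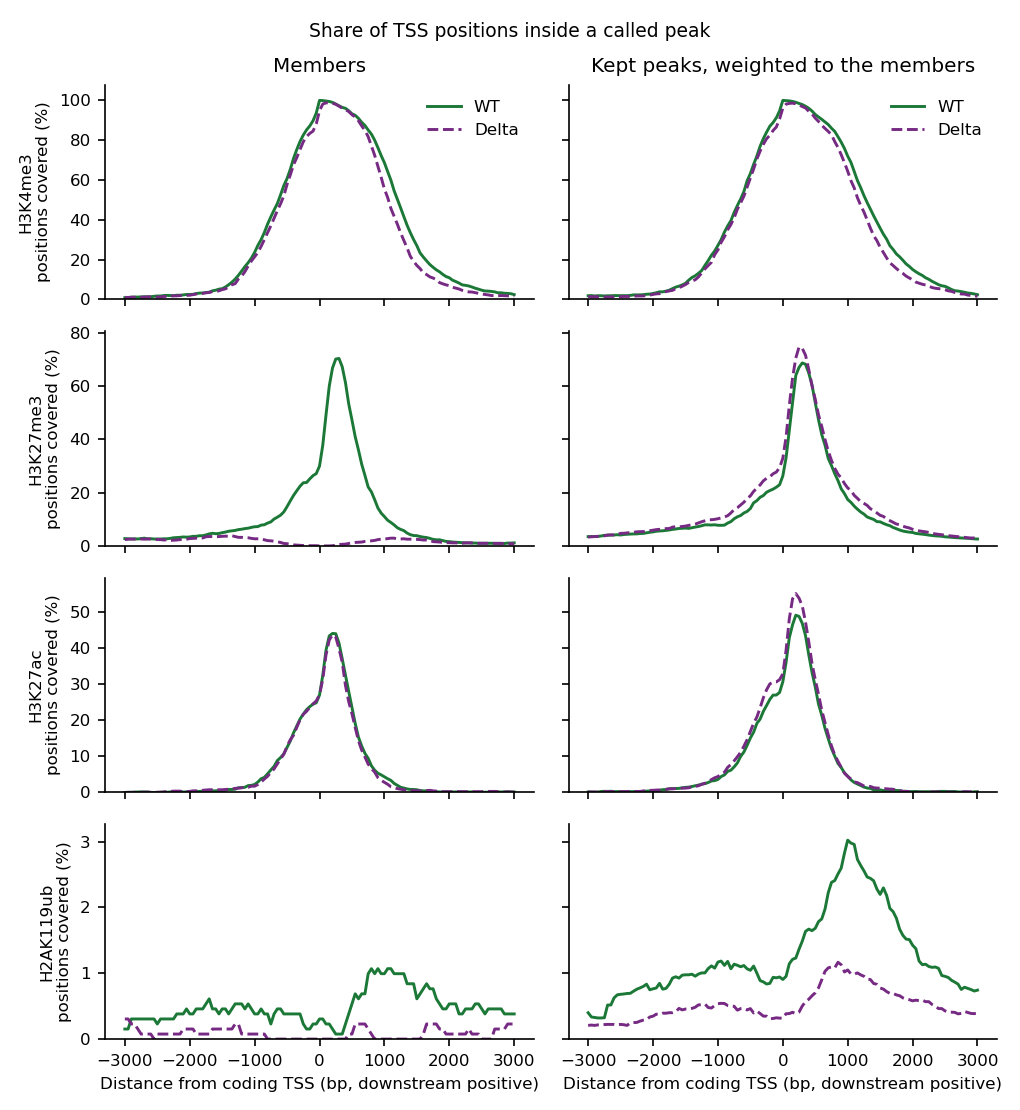
Percentage of positions inside a called peak (y axis) by distance in bp from the coding TSS (x axis), for 1309 members and 4419 weighted kept peaks that held a TSS, in WT (solid) and Delta (dashed). WT H3K27me3 of members peaks at 70.3% at 300 bp, beside H3K27ac, which peaks at 200 bp with 44.2%, and the flat Delta H3K27me3 line of members follows from the rule.

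H3K27ac was common at members. It was called at 784 members in WT (50.9%, 48.4% to 53.4%), against 24.7% of all WT H3K4me3 peaks and 18.2% of kept peaks, and at 790 in Delta (51.3%), against 28.5% of all and 20.3% of kept peaks. At 745 of the 784 members with WT H3K27ac, the 2 modifications of lysine 27 were called on the same bases, with a median of 314 shared bp. The calls come from pooled cells, so they do not show both marks in the same cell or on the same histone. Once kept peaks were weighted to the members' WT H3K27me3 length, their share with H3K27ac was 55.1% in WT and 60.1% in Delta. The difference, members minus weighted kept peaks, was -4.19 percentage points (-7.58 to -0.81) in WT and -8.78 (-12.1 to -5.48) in Delta.

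The direction of both H3K27ac differences depended on the measure of WT H3K27me3 used for matching. Matched on the bp of the H3K4me3 peak that WT H3K27me3 covered, members had more H3K27ac by 29.1 points in WT and 26.9 in Delta. Matched on the −log10 q of WT H3K27me3, they had more by 10.1 and 5.10 points. Matched on WT H3K27me3 length and H3K4me3 length together, the WT difference was -1.26 points (-4.59 to 2.07) and the Delta difference -6.18 points (-9.43 to -2.92). No order between members and kept peaks in H3K27ac is drawn from these values.

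H3K27ac called in WT and not in Delta was more frequent at members under each of these matchings. It was found at 140 members (9.09%, 7.76% to 10.6%), 1.93% of kept peaks, 4.47% of weighted kept peaks and 4.51% of all WT H3K4me3 peaks. The difference from weighted kept peaks was 4.63 points (2.82 to 6.43), with a range of 1.90 to 7.09 over 13 other settings, and its interval included 0 in 1 of them, where at least 50% of the peak had to be covered by WT H3K27me3. H3K27ac in Delta alone was found at 146 members (9.48%), 3.95% of kept peaks, 9.44% of weighted kept peaks and 8.31% of all. Of members with WT H3K27ac, 82.1% (79.3% to 84.7%) had it in Delta too, against 89.4% (87.5% to 91.0%) of such kept peaks and 81.8% (80.5% to 82.9%) of all such WT H3K4me3 peaks. Of members without WT H3K27ac, 19.3% (16.7% to 22.3%) had it in Delta, against 4.84% of such kept peaks and 11.0% of all. The shares among peaks with or without WT H3K27ac were not matched on WT H3K27me3 length. For H3K27ac in Delta alone, the difference between members and weighted kept peaks was 0.04 points (-2.08 to 2.16). At the 1022 Delta bivalent peaks without WT H3K27me3, H3K27ac was called in Delta alone at 16.2% and in WT alone at 4.79%. There the median log2 ratio of Delta to WT H3K4me3 fold enrichment was -0.06. The lists of a genotype share 1 input, and the part of that input in these values was not tested.

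**Figure D4:**
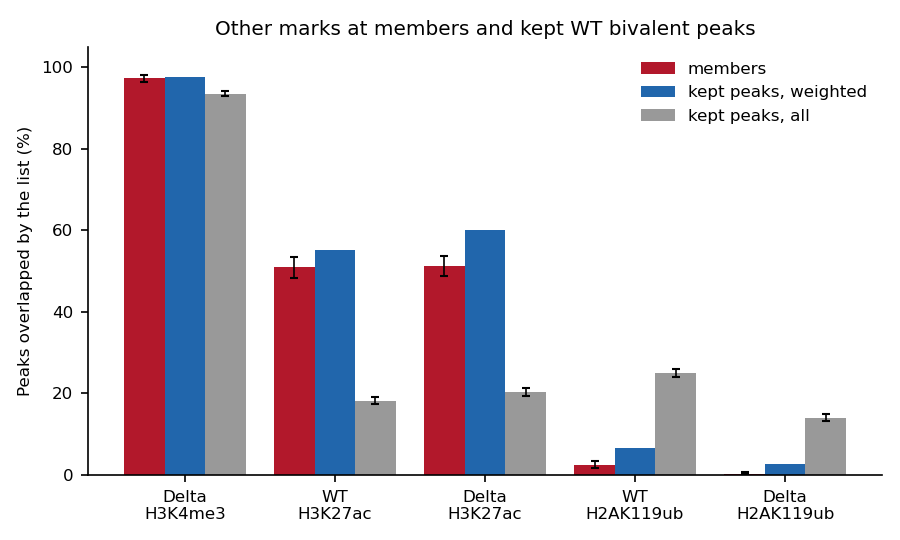
Percentage of peaks overlapped by 5 other lists (y axis) for members, kept peaks weighted to the members' WT H3K27me3 length, and all kept peaks, with 95% Wilson intervals on the unweighted bars. H3K27ac is near 50% at members and near 20% at all kept peaks, and H2AK119ub is below 3% at members.

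Members with H3K27ac in WT alone, ranked by its length, began with Cited2, a CBP/p300-binding regulator of heart and blood development, where 1440 bp of WT H3K27ac had a fold enrichment of 3.77. Zrsr1, an imprinted splicing factor gene, followed with 1412 bp, then Rmnd1, a mitochondrial translation gene, with 1333 bp, and Nub1, a NEDD8 regulator, with 1313 bp. Rplp1, printed above, had 1144 bp, and Ppih, Csnk2b and Fads2 had 1120, 1110 and 1009 bp. All 8 kept an H3K4me3 peak in Delta, and the fold enrichment was lower there, for example 9.89 in WT and 7.77 in Delta at Cited2 and 12.1 and 6.69 at Nub1. Their WT H3K27me3 was between 295 and 1094 bp long.

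Members with H3K27ac in Delta alone began with Id2, an inhibitor of basic helix-loop-helix factors, where 1687 bp were called with a fold enrichment of 4.80. Etv5 followed with 1293 bp and 4.30, and Mdk, which encodes the growth factor midkine, with 1241 bp and 4.88. At Mdk the H3K4me3 fold enrichment was 8.67 in WT and 9.52 in Delta, and at Etv5 it was 8.64 and 6.76. Cnot10, Zfand2a, the Cisd1 and Ipmk promoter and Uap1 had 951 to 1094 bp. Mixl1, a homeobox gene of the primitive streak and endoderm, also belonged here. It had 1397 bp of WT H3K27me3 with a −log10 q of 4.47, covering all 1026 bp of its H3K4me3 peak (chr1:182626441-182627466), and 387 bp of H3K27ac in Delta, with H3K4me3 at 5.81 in WT and 5.59 in Delta.

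H2AK119ub was rare at members. It overlapped 38 members in WT (2.47%, 1.80% to 3.37%) against 11.1% of all WT H3K4me3 peaks and 25.0% of kept peaks, and 5 in Delta (0.325%, 0.139% to 0.758%) against 5.93% of all and 14.1% of kept peaks. Weighted kept peaks had 6.52% in WT and 2.71% in Delta, which left differences of -4.06 points (-5.17 to -2.94) and -2.39 points (-2.86 to -1.91). The longest stratum, from 1594 bp up, was open towards long domains, and there 9.09% of members and 33.4% of kept peaks had WT H2AK119ub. With 100 strata the differences were -3.08 and -1.44 points, with nearest pairs -2.90 and -1.59, and matched on bp covered -15.6 and -9.66. They were below 0 under the other settings as well. The Delta H2AK119ub list was the shorter one, with 2388 peaks against 4922 in WT. The H2AK119ub lists held 0 peaks on chromosome X, where 27 members lay.

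**Figure D5:**
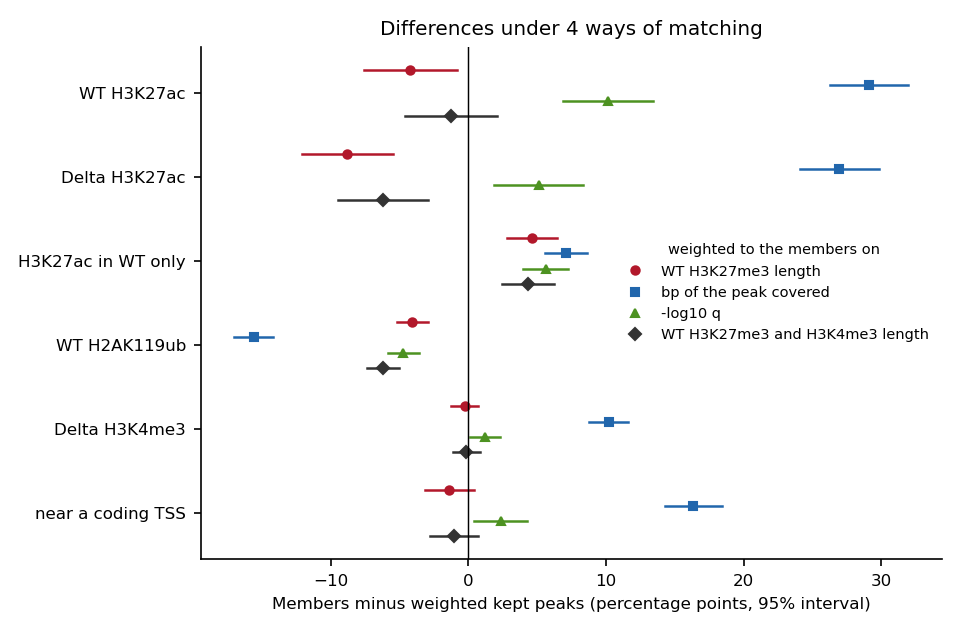
Members minus weighted kept peaks in percentage points with 95% intervals (x axis) for 6 measures (y axis), under 4 choices of the measure on which kept peaks were weighted to the members. WT and Delta H3K27ac lie on both sides of 0, H3K27ac in WT only stays to the right of it and WT H2AK119ub to the left.

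WT H2AK119ub alone was found at 35 members (2.27%), against 6.70% of all WT H3K4me3 peaks. They were led by Afap1, an actin filament adaptor, with 941 bp, and Ahdc1 with 929 bp. A member 9908 bp from Msx2, a homeobox target of BMP signalling, had 893 bp, and Inf2, Nfatc4, Mllt6 and a member near Sox4 had 757, 698, 620 and 488 bp, with 665 bp at a member whose nearest coding gene was Cstad. The WT H2AK119ub fold enrichments of these 8 were between 3.46 and 3.91. H2AK119ub in Delta alone was found at 2 members, against 1.50% of all, with 194 bp at Foxo3 and 20 bp at a member near Slc38a10.

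At the promoters, 237 members lay at more than 1 coding gene. Of 6959 coding genes with a bivalent WT peak, 1575 (22.6%, 21.7% to 23.6%) had members alone and 57 had both members and kept peaks. At 1425 of the 1575, no Delta H3K27me3 lay within 2500 bp of any coding TSS of the gene. All counts of gene lists that follow are of genes with members alone among the list's bivalent genes, to be read beside 22.6%. The median length of the longest WT H3K27me3 over all 6959 genes was 1606 bp. Neither the 22.6% nor the shares of the lists are matched on that length.

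Developmental regulators were seldom among them. None of 32 bivalent Hox genes and none of 44 neural transcription factors had members alone, where a count of 0 allows at most 10.7% and 8.03% by the Wilson interval, and the median WT H3K27me3 was 99404 bp and 20272 bp in these lists. Of 179 homeobox, forkhead, Sox, T-box and GATA family genes 5 did (2.79%), Sox9, Evx1, Foxp1, Foxn3 and Foxo3. Sox9, the regulator of cartilage, had a 859 bp H3K4me3 peak inside 7118 bp of WT H3K27me3 that met Delta H3K27me3 776 bp away. Foxp1, Foxn3 and Foxo3 had between 638 and 1386 bp.

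Among lineage lists, 1 of 23 blood transcription factors had members alone, Etv6, an ETS repressor needed for blood stem cells, with 664 bp of WT H3K27me3 and H3K27ac in both genotypes. Of 14 endothelial genes it was Ephb4, the venous ephrin receptor, with 791 bp, where H3K27ac was called in WT alone over 332 bp. Of 17 cardiac genes it was Myocd, the smooth and cardiac muscle coactivator, with 852 bp covering its whole 417 bp H3K4me3 peak. Of 14 primitive streak genes there were Evx1 and Mixl1, and of 25 paraxial and limb mesoderm genes Sox9. None of the 7 bivalent marker genes of mesoderm and blood precursors was among them. Of 31 bivalent genes that the study discussed, Mixl1 alone was.

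Signalling genes were few as well, in lists whose median longest WT H3K27me3 ran from 3088 bp (Notch) to 4890 bp (Wnt). The counts were 1 of 37 for Wnt (Dkk1, a secreted antagonist), 1 of 39 for BMP and TGF-beta (Gdf11, a ligand), 2 of 32 for FGF, PDGF and VEGF (Spry2, a feedback inhibitor, and Etv5) and 2 of 18 for Notch (the receptor Notch2 and the coactivator Maml1). Spry2 had 903 bp of WT H3K27me3 inside an H3K4me3 peak of 6299 bp, with H3K27ac in WT alone over 288 bp. Notch2 and Maml1 had H3K27ac in both genotypes. Ion channel, neurotransmitter receptor and extracellular matrix genes gave 5 of 101, 3 of 62 and 3 of 60, guidance genes 4 of 54, and cadherins 2 of 32.

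Zinc finger genes stood above the share of all genes, and other lists of general cell functions near or below it. These comparisons were not matched on WT H3K27me3 length. In the class of 500 to 1000 bp, 37.8% of WT bivalent peaks were members. Of 78 bivalent Zfp zinc finger genes 27 (34.6%, 25.0% to 45.7%) had members alone, with a median WT H3K27me3 of 980 bp over the list. Of 69 bivalent genes of cytosolic ribosomal proteins 14 (20.3%, 12.5% to 31.2%) did, near the share of all genes, at a median of 818 bp. Rpl39, Rpl22 and Rplp1 had the longest WT H3K27me3 among the 14, between 705 and 920 bp, and strong H3K4me3, with WT fold enrichments of 8.43 to 11.0. Of 123 solute carriers 17 (13.8%) did. Of 20 Polycomb and H3K27 enzyme genes 5 did (25.0%, 11.2% to 46.9%). They were Ezh2, the H3K27 methyltransferase of PRC2, with 442 bp of WT H3K27me3 and 1583 bp of WT H3K27ac, the PRC2 cofactor Aebp2, and Phc3, Scmh1 and Pcgf6 of PRC1.

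Of genes that the study assigned to activation by SCL, 30 of 317 bivalent ones (9.46%, 6.71% to 13.2%) had members alone, and of those assigned to repression 17 of 156 (10.9%, 6.92% to 16.8%). The study made these lists from RNA-seq and SCL binding in FLK1-positive embryoid body cells, with Scl-null cells of another line, and not from the lists of marks used here. Both shares were below that of all genes, and their WT H3K27me3 was longer, with medians of 2517 and 3327 bp. Jun, a subunit of AP-1, had the longest WT H3K27me3 among the activated ones with members alone, 1652 bp, with H3K27ac in both genotypes. Dock4, whose promoter is shared with Zfp277, was first among such repressed ones with 2290 bp and no H3K27ac.

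Median GC content was 56.1% in members, 61.8% in kept peaks and 57.4% in weighted kept peaks, and the observed over expected CpG ratio was 0.68, 0.72 and 0.72. The difference in median GC content from weighted kept peaks was -1.28 points, and it was -4.996 points when matched on bp covered and -2.92 when matched on −log10 q. The GATA motif AGATAA, searched on both strands of the 300 bases at the centre, was found in 104 members (6.75%), 3.77% of kept peaks, 4.93% of weighted kept peaks and 5.51% of all WT H3K4me3 peaks. The difference from weighted kept peaks was 1.82 points (0.16 to 3.48), and no other matching was run for the motif. The motif is rich in A and T, and whether the lower GC content of members had a part in this was not tested. The E-box CANNTG was found in 60.8% of members, 63.0% of kept peaks, 60.0% of weighted kept peaks and 63.8% of all, and the difference from weighted kept peaks was 0.76 points (-2.63 to 4.15). Members were found on every chromosome with bivalent peaks, at 14.7% of them on chromosome 1 and up to 25.1% on chromosome 16.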

How the data were processed

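ChIP-Rx libraries of H3K4me3, H3K27me3, H3K27ac and H2AK119ub from WT and Delta cells gave 8 broad peak lists, and the 2 inputs were not analysed here. Per the labels and the study's methods, the authors trimmed reads with Trim Galore, aligned them to mm9 and dm3 with Bowtie, removed duplicates and called broad peaks per library with MACS2 2.0.10 against the input of the same genotype. Spike-in scaling is described for densities and not for peak calls. The deposited lists give a score, a fold enrichment ratio over local background, and −log10 p-values and q-values, and the score and the −log10 p-value entered no result. The spike-in factors therefore do not enter these calls, and weak regions near the calling threshold can pass in 1 list and not in another. Whether a change in the amount of a mark between genotypes moved the calls was not tested.

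Overlaps of at least 1 bp were computed in Python 3.11.15 (numpy 2.4.6, pandas 2.3.3) and checked against bedtools 2.31.1. Genes were taken from GENCODE M1 and bases from the genome of the same build. Kept peaks were weighted to the members in 10 strata of summed WT H3K27me3 length, and intervals (95%) covered counting of regions only. The calculation of the weighted difference was run on simulated data with more strata than the main setting, and that run is not support for the values above. Members and gene lists were chosen with earlier results of these data known. Named regions were the 10 with the longest WT H3K27me3, the 10 with its highest −log10 q, the 8 with the most H3K27ac or H2AK119ub in 1 genotype alone, the 5 longest without Delta H3K4me3, the 3 nearest each limit, and up to 4 genes per list. A region was named by coding genes within 2500 bp of a TSS, otherwise by the nearest. Some genes that this rule would name are not reported here.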

Additional observations from a re-analysis of the deposited data

How the results depend on the processing

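No paired analysis was possible because each mark had a single library in a genotype. No replicate could be left out, and intervals cover counting only. The first limit is the calling threshold. Limited to WT H3K27me3 peaks of −log10 q 3 or more, the rule gave 544 members (9.12% of bivalent peaks), and with at least 50% of the peak covered 259 (5.04%). The share was 16.8% with no Delta H3K27me3 within 2500 bp, 21.0% for peaks at a coding TSS and 20.6% with 1 H3K4me3 peak per WT H3K27me3 peak.

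The second is the matching. Matched on bp covered, members minus kept peaks turned to 29.1 percentage points for WT H3K27ac, 26.9 for Delta H3K27ac, 10.2 for Delta H3K4me3 and 16.3 for a coding TSS, Delta-only H3K27ac was 4.94 and median GC content -4.996 points. Matched on −log10 q, the same were 10.1, 5.10, 1.22 and 2.36, with GC content at -2.92. With at least 50% covered, WT and Delta H3K27ac turned to 7.60 and 7.82, and WT-only H3K27ac was 1.90 with an interval that included 0. The WT H3K27ac difference also had an interval that included 0 at a −log10 q of at least 3 (-2.10), with no Delta H3K27me3 within 2500 bp (-0.81), matched on both lengths (-1.26, GC content -1.74) and without chromosomes 1, 8 and X (-3.42). With 100 strata, the coding TSS difference was -1.82 with an interval below 0. The causes of these changes were not tested. The H2AK119ub and H3K4me3 fold enrichment differences stayed below 0, intervals included, under each of 13 settings, from -15.6 to -2.90 points for WT H2AK119ub and from -9.66 to -1.44 for Delta H2AK119ub. The 100 strata, the matching on H3K4me3 fold enrichment, and the WT-only, Delta-only and H3K4me3 fold enrichment differences were chosen after seeing the data. With a TSS distance of 1000 bp, 1556 genes had members alone, and the counts of the 25 gene lists were the same.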
